A study of Homo sapiens with 12 samples.

Results

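The response to GATA2 siRNA was measured in MDVR, an enzalutamide-resistant prostate cancer line. It rests on 6 of the study's 12 arrays, 3 of cells transfected with a siRNA against GATA2 (siGATA2) and 3 of cells given a non-targeting siRNA (siNT). Probes with a detection p-value under 0.05 on at least 3 of these 6 arrays were kept, which left 19722 of 47323 probes and 11066 named genes, each read by its brightest kept probe. MDVR was derived from LNCaP, a line from a human prostate cancer metastasis, by prolonged culture in 10% fetal bovine serum with 25 microM enzalutamide, an androgen receptor antagonist. Both siRNA groups carried this history, and both were kept in 10 microM enzalutamide during the experiments. Each group received 25 nM of Stealth siRNA, of which 1 against GATA2 is named, and RNA was collected after 72 h. The study's other line, LNCaP-abl (Abl), had the same 3 and 3 arrays, was kept in 10% charcoal-stripped serum, which is poor in androgens, and serves here only to show where MDVR differed. Line, serum and enzalutamide differ together between them and cannot be told apart. Whether replicates came from separate cultures is not stated in the labels. The p-values therefore cover the spread among these arrays, which may be technical.

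GATA2 is a zinc finger transcription factor that binds GATA motifs. In prostate cells it helps to open chromatin at enhancers used by the androgen receptor, the hormone-activated factor that drives luminal genes such as the kallikreins and supports growth of prostate cancer. Enzalutamide blocks androgen binding to that receptor, and resistant lines grow in its presence. The comparison asks which RNAs change in such a line when GATA2 is targeted.

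The targeted gene itself was not called lower in MDVR. Its single probe read 8.88, 9.16 and 9.26 normalized log2 units on the siNT arrays and 9.09, 8.80 and 8.86 on the siGATA2 arrays. The groups overlap, since the first siGATA2 array lies above the lowest siNT array. The change was -0.18 (SE 0.12, 95% interval -0.42 to 0.06, limma adjusted p = 0.28), and an exact two-sided permutation test over the 6 arrays gave p = 0.2, where 0.1 is the smallest p that 3 against 3 can give. The arrays therefore carry their label without a measured fall of GATA2 RNA at 72 h, and the groups are called by their siRNA labels. In Abl the same probe was called lower (-0.41, SE 0.12, adjusted p = 0.0097). The test of the difference between the lines was not called (0.23, 95% interval -0.11 to 0.58, adjusted p = 0.46).

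Although GATA2 RNA was not called, many genes were. Of 11066 genes 2675 (24.2%) passed an adjusted p under 0.05, 1401 higher (12.7%) and 1274 lower (11.5%) in siGATA2 cells; 208 of them (1.88%) changed by at least 2-fold, 133 higher and 75 lower. The siGATA2 and siNT arrays were fully apart for 2588 of the called genes and for 4216 of all genes (38.1%). A group of 33 genes called higher was detected on all siGATA2 arrays and on no siNT array. Lower bounds on their change were 1.16-fold to 3.12-fold. Another 19 genes called lower showed the reverse, with bounds of 1.12-fold to 3.72-fold. Bounds of this kind apply to the normalization used here and include no sampling error, and some alternatives gave smaller changes. The quartiles of all log2 changes were -0.19 and 0.19, and the median was -0.0008. Kept probes with no single symbol numbered 5116, and 584 of these were called (11.4%), 282 higher and 302 lower. Depth was even across the arrays, with 19284 to 20513 probes detected and median raw intensities of 137 to 143. Arrays of 1 group correlated at r = 0.990 to 0.992 across probes, and siNT against siGATA2 arrays at 0.981 to 0.984.

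The kallikreins of the prostate, secreted serine proteases whose genes lie side by side on chromosome 19, fell together. Of 6 tested members 5 were called lower and none higher (83.3% lower, against 11.5% of all genes), with a median log2 change of -1.21. KLK4 read 11.74, 11.78 and 11.87 on the siNT arrays and 10.11, 9.87 and 9.66 on the siGATA2 arrays, a change of -1.92 (SE 0.11, adjusted p = 6.7e-10) that left 26.5% of the siNT level. KLK2, an activator of other kallikreins, read 6.35, 6.44 and 6.29 against 4.79, 4.89 and 4.44. Its probe was detected on every siNT array and on no siGATA2 array, so KLK2 was at least 2.45-fold lower. KLK3, which encodes prostate-specific antigen, read 5.29, 5.44 and 5.64 against 5.00, 4.45 and 4.63 and was at least 1.31-fold lower by the same rule. Both lie near the detection limit in siNT cells, in contrast to KLK4, so their fold sizes depend on the background correction. The pseudogene KLKP1, whose probe may read other kallikreins, was at least 2.54-fold lower.

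In the RefSeq gene order KLK15, KLK3, KLK2, KLKP1 and KLK4 are neighbours, and these are the 5 members called lower. KLK15 changed by -0.59 (SE 0.18, adjusted p = 0.023), a call that was lost without siNT replicate 3 (adjusted p = 0.075), siNT replicate 4 (0.085) or siGATA2 replicate 1 (0.11). The remaining tested member, KLK10, which lies beyond 5 untested kallikreins on the far side of KLK4, read within overlapping ranges (-0.29, not called). KLK10 falls outside the rule for named genes and was added to complete the family, as were the members of other families named below for their position. The KLK2 and KLK3 genes arose by duplication, and the probe of each may pick up some RNA of the other.

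**Figure D1:**
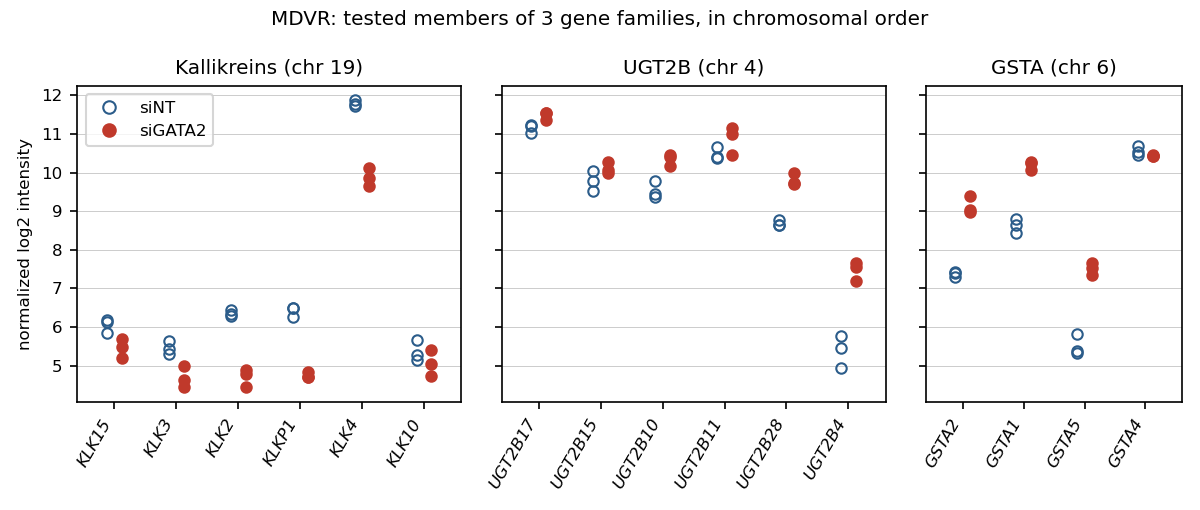
Normalized log2 intensity of the tested members of the kallikrein, UGT2B and GSTA families on each of the 6 MDVR arrays, with the genes of each family in chromosomal order (open circles siNT, filled circles siGATA2). The siGATA2 points lie below the siNT points for KLK15, KLK3, KLK2, KLKP1 and KLK4, and KLK10 overlaps; the siGATA2 points lie above for UGT2B4, UGT2B28, UGT2B10, GSTA1, GSTA2 and GSTA5.

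The promoters of the 3 kallikreins are shown because their genes moved together, while the upstream sequence of KLK4 differs from those of KLK2 and KLK3. Each sequence is the 250 bases before the annotated start in RefSeq GRCh38.p14, written 5′ to 3′ on the gene's strand. The regions are chr19:50910739-50910988 (minus strand) for KLK4, chr19:50873189-50873438 (plus) for KLK2 and chr19:50854665-50854914 (plus) for KLK3. Capitals mark matches, on either strand, to a GATA motif (AGATAA, also searched as AGATAG, the variant TGATAA and its form TGATAG) or to a hexamer of the androgen response element (AGAACA and the variant AGTACA).
KLK4: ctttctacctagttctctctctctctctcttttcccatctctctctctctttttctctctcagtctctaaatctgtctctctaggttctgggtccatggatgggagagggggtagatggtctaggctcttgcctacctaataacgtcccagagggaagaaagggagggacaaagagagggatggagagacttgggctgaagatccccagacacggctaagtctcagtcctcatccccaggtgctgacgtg
KLK2: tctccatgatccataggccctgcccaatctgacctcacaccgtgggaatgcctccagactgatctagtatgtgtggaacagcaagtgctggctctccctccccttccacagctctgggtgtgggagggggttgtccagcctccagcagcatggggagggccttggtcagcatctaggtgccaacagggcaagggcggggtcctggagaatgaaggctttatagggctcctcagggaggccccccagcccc
KLK3: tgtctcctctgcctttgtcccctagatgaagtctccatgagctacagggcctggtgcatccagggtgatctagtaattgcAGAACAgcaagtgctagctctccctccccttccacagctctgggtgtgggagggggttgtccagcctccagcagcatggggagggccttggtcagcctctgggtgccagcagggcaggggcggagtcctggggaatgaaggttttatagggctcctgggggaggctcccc
The KLK2 and KLK3 stretches are 79.2% identical (205 of 259 aligned columns), whereas KLK4 matches KLK2 at 44.9% and KLK3 at 44.6%. Only the KLK3 stretch holds an exact match, an AGAACA that spans bases -170 to -165 from the start. Before the same gcaagtgct, KLK2 reads ggaaca, which differs in its first base and was not counted. The search took exact matches only, so it cannot show that KLK2 or KLK4 lacks a related site. No GATA motif stands in any of the 3 windows.

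Over all promoters of this length, the GATA motif was found in 22.9% of 27305, in 13.3% of the 8928 that matched a tested gene, in 11.5% of those of genes called lower and in 13.2% of those of genes called higher. AGAACA was found in 12.4%, 7.41%, 8.61% and 6.04% of the same sets, and AGTACA in 5.58%, 3.48%, 2.9% and 3.68%. These shares describe the windows alone.

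Other genes of the androgen axis moved both ways. Of 23 tested genes known to be induced by the androgen receptor, 7 were lower and 4 higher (30.4% and 17.4%, against 11.5% and 12.7% of all genes), with a median change of -0.09. TMPRSS2, a membrane protease, read 9.61, 9.96 and 10.04 on the siNT arrays and 9.78, 9.80 and 9.55 on the siGATA2 arrays (-0.16, adjusted p = 0.28), and FKBP5, a chaperone partner of steroid receptors, changed by -0.09 (adjusted p = 0.61). TARP, which is transcribed from a T cell receptor locus in prostate cells, rose from 5.76, 5.86 and 6.02 to 7.39, 7.42 and 7.12 (change 1.43, SE 0.17, adjusted p = 4.1e-06). The probe assigned to FOLH1B, a near copy of FOLH1, rose by 1.26 (SE 0.14). It may read FOLH1, which is described below among genes that androgen represses, so this rise need not be that of an induced gene. The count of induced genes called lower was 4 without siGATA2 replicate 3.

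Of 14 tested genes that androgen represses, 8 were higher and 2 lower (57.1% and 14.3%), and the median change was 0.33. FOLH1, the prostate-specific membrane antigen, rose from 11.20, 11.13 and 11.23 to 11.59, 11.83 and 11.99 (change 0.62, SE 0.09, adjusted p = 3.4e-05). OPRK1, an opioid receptor, rose by 0.75 (SE 0.11), and ST7 fell by 0.51 (SE 0.08). UGT2B genes make up 4 of the 8, and the count was 5 without siNT replicate 3 or without siGATA2 replicate 3.

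Among transcription factors of the prostate lineage 2 of 13 were higher and 3 lower (15.4% and 23.1%, against 12.7% and 11.5% of all genes). FOXA1, a pioneer factor for the androgen receptor, read 12.92, 12.87 and 13.01 against 13.08, 13.10 and 12.94 (change 0.11, adjusted p = 0.32), and HOXB13, another of its partners, changed by 0.15 (adjusted p = 0.28). EHF, an epithelial ETS factor, fell from 9.46, 9.39 and 9.90 to 8.78, 8.70 and 8.40 (change -0.96, SE 0.15, adjusted p = 7.7e-05). SPDEF, another ETS factor of luminal cells, fell by 0.47 (SE 0.11), and SOX9, a factor of developing prostate epithelium, rose by 0.74 (SE 0.16). Neither FOXA1 nor HOXB13 separated the groups, while all 3 arrays of EHF, SPDEF and SOX9 did.

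Prostate tissue antigens moved both ways. AMACR, a racemase for branched-chain fatty acids that is used as a prostate cancer marker, fell from 10.45, 10.00 and 10.38 to 8.25, 8.13 and 8.41 (change -2.01, SE 0.12, adjusted p = 6.9e-10), and its 2 other probes fell too (-1.81 and -1.25). The relaxin genes RLN1 and RLN2, adjacent on chromosome 9 and encoding secreted peptide hormones, rose. RLN2 went from 5.18, 5.17 and 5.22 to 6.75, 6.60 and 6.84 (change 1.54, SE 0.12, adjusted p = 3.5e-08), and RLN1 by 1.79 (SE 0.17); as close copies, they may share signal. In the whole list of 12 antigens 4 rose and 2 fell (33.3% and 16.7%, against 12.7% and 11.5% of all genes).

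Genes of the UGT2B family rose together. UDP-glucuronosyltransferases of the UGT2B family attach glucuronic acid to androgens, which inactivates them. All 6 tested UGT2B genes on chromosome 4 were called higher, by 0.33 to 2.07. UGT2B15, UGT2B17 and UGT2B11 changed least (0.33, 0.33 and 0.40). In the wider list of 9 such genes 7 were higher and 1 lower (77.8% and 11.1%). The number higher was 5 to 7 with 1 array left out. UGT2B4 read 5.46, 4.95 and 5.77 on the siNT arrays and 7.18, 7.66 and 7.56 on the siGATA2 arrays (change 2.07, SE 0.20, adjusted p = 3.4e-07). UGT2B28 rose from 8.64, 8.64 and 8.78 to 9.73, 9.71 and 9.99 (change 1.12, SE 0.11), and UGT2B10 by 0.81 (SE 0.10). These genes are close copies and their probes may read one another, so 6 calls need not be 6 separate RNAs. UGT1A6, of the other UGT family, went the opposite way, from 6.40, 6.05 and 6.56 to 4.81, 4.88 and 5.18 (change -1.38, SE 0.21, adjusted p = 9.9e-05).

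Glutathione S-transferases, which couple glutathione to reactive compounds, included 4 of 15 members that rose and none that fell (26.7%, against 12.7% of all genes). GSTA1 rose from 8.65, 8.80 and 8.44 to 10.25, 10.07 and 10.28 (change 1.57, SE 0.11, adjusted p = 6.8e-09). GSTA2 rose by 1.76 (SE 0.17) and GSTA5 by 2.00 (SE 0.17), while GSTA4 overlapped between the groups (-0.12, not called). The probes of GSTA1, GSTA2 and GSTA5 may read one another, so these calls need not be separate RNAs. Targets of NRF2, the factor that drives many detoxifying and antioxidant genes, were mostly not called. Of 23 tested, 1 was higher and 3 were lower, and 4 were higher without siGATA2 replicate 1. EPHX1, an epoxide hydrolase, rose by 0.63 (SE 0.08), and TKT, a transketolase of the pentose phosphate pathway, fell by 0.58 (SE 0.08).

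Enzymes that make or convert steroids were higher in 5 of 17 cases and lower in 1 (29.4% and 5.88%, against 12.7% and 11.5% of all genes). AKR1C3, which forms testosterone from its precursor, rose from 8.15, 7.74 and 7.94 to 8.90, 9.11 and 9.15 (change 1.11, SE 0.14, adjusted p = 1.2e-05), with close copies that may share its probe. RDH11, a retinol dehydrogenase of prostate, rose by 1.01 (SE 0.09), and HSD17B12, a hydroxysteroid dehydrogenase, by 0.46 (SE 0.09). SULT2B1, a sulfotransferase for cholesterol and steroids, fell by 0.94 (SE 0.16). The number called higher was 3 without siGATA2 replicate 3.

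Outside these families the largest rise was that of S100P, a calcium-binding protein of cancer cells. It read 9.19, 8.53 and 8.57 on the siNT arrays and 11.99, 12.53 and 12.68 on the siGATA2 arrays (change 3.63, SE 0.17, adjusted p = 4.1e-11). Its relative S100A11 fell from 10.63, 10.47 and 10.59 to 9.51, 9.38 and 9.29 (change -1.17, SE 0.08, adjusted p = 9.2e-09), and S100A10 overlapped (-0.19, adjusted p = 0.3). The S100 genes therefore shared no direction.

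SERPINA3, a secreted serpin that inhibits chymotrypsin-like proteases, rose from 7.31, 7.13 and 7.21 to 9.21, 9.63 and 9.63 (change 2.28, SE 0.15, adjusted p = 3e-09). In the list of 11 serpins and other secreted inhibitors 3 were higher and 1 lower, among them SERPINA1, an elastase inhibitor (0.77, SE 0.18), and SERPINI1 (-0.62, SE 0.12). The SERPINA3 promoter (chr14:94612141-94612390, plus strand, RefSeq GRCh38.p14) is shown because its window holds both kinds of motif.
SERPINA3: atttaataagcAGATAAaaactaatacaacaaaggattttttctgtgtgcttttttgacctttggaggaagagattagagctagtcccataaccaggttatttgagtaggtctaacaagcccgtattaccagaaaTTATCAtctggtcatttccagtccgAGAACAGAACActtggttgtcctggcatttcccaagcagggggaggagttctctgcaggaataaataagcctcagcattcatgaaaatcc
Capitals mark 2 GATA motifs, at bases -239 to -234 and -115 to -110 (the latter on the other strand), and a run in which 2 AGAACA matches, at -90 to -85 and -85 to -80, share a base.

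SPINT2, a Kunitz inhibitor of membrane serine proteases such as matriptase, fell from 12.31, 12.46 and 12.30 to 10.45, 10.42 and 10.52 (change -1.89, SE 0.07, adjusted p = 3.9e-12), which left the groups far apart. Of the 11 tested genes of this protease system it was the only one called lower, and 3 were higher. One of them, PRSS8 or prostasin, rose from 10.94, 10.94 and 10.86 to 11.41, 11.56 and 11.14 (change 0.46, SE 0.12, adjusted p = 0.0062). The number higher was 1 without siNT replicate 4 or without siGATA2 replicate 1.

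Several of the other large changes were in genes of the cell surface, secretion and signalling. KCNU1, a potassium channel subunit, rose from 6.98, 6.77 and 6.76 to 9.12, 9.34 and 9.30 (change 2.42, SE 0.12, adjusted p = 6.3e-11). MATN2, an extracellular matrix adaptor, rose from 8.54, 8.58 and 8.53 to 10.59, 10.68 and 10.68 (change 2.10, SE 0.08, adjusted p = 2.7e-12). DIO1, which activates thyroid hormone, rose from 8.47, 8.38 and 8.26 to 10.15, 10.21 and 10.17 (change 1.81, SE 0.09, adjusted p = 5.5e-11). In all 3 genes the siGATA2 arrays stand far above the spread of the siNT arrays. ADGRV1, an adhesion receptor, rose by 1.84 (SE 0.11), ENPP5 by 1.82 (SE 0.11), MTMR9 by 1.93 (SE 0.09) and ZBTB34 by 1.75 (SE 0.12). TRIM2, a ubiquitin ligase, was detected on every siGATA2 array and no siNT array and was at least 3.12-fold higher. Its log2 change ran from 0.48 to 2.29 across the alternatives, so this bound depends on the processing.

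SDCBP2, a PDZ protein that binds syndecans, had the largest fitted fall, from 7.51, 7.95 and 7.78 to 5.91, 4.89 and 5.67 (change -2.26, SE 0.20, adjusted p = 1.3e-07). Its probe was detected on 2 of 3 siGATA2 arrays. The change ran from -2.47 to -0.76 across the alternatives, so its size and rank depend on the processing. Other SDCBP2 probes, each detected on 1 siGATA2 array, were called lower with smaller changes (-1.32 and -0.74). TM4SF1, a tetraspan membrane protein, fell from 9.25, 9.29 and 9.25 to 7.87, 7.39 and 7.59 (change -1.65, SE 0.15, adjusted p = 1.9e-07). SEMA3C, a secreted semaphorin, fell from 7.11, 7.61 and 7.51 to 5.51, 5.96 and 6.09 (change -1.56, SE 0.20, adjusted p = 1.4e-05). For each of them every siGATA2 array lies below every siNT array. COLCA1 fell by 2.01 (SE 0.18), MIA3, which helps to export collagen from the endoplasmic reticulum, by 1.74 (SE 0.14), and BRD3, a reader of acetylated histones, by 1.64 (SE 0.20). HEPACAM, a cell adhesion molecule, and ODAM, an ameloblast-associated secreted protein, were detected on no siGATA2 array and were at least 3.72-fold and 3.09-fold lower. Across the alternatives the log2 change ran from -2.36 to -0.57 for HEPACAM and from -2.24 to -0.52 for ODAM. These bounds therefore depend on the processing too.

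**Figure D2:**
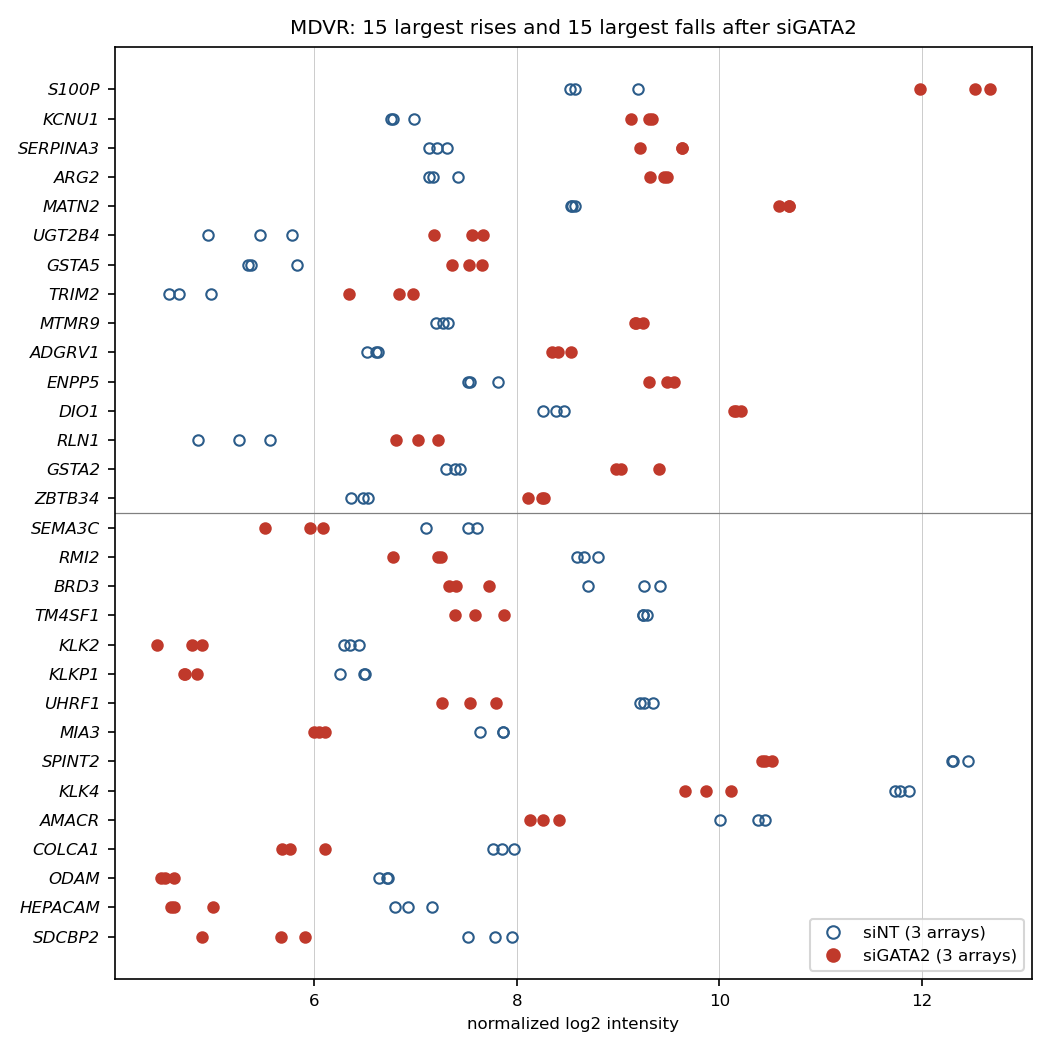
Normalized log2 intensity of the 15 largest rises and the 15 largest falls among called genes whose groups do not overlap, by array (open circles siNT, filled circles siGATA2; n = 3 arrays a group). The rises run from ZBTB34 (1.75) to S100P (3.63) and the falls from SEMA3C (-1.56) to SDCBP2 (-2.26). These genes were selected for their separation.

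Arginine and polyamine genes changed often, and in both directions. Arginase splits arginine into urea and ornithine, from which polyamines are built; spermidine/spermine acetyltransferase marks polyamines for breakdown or export. ARG2, the mitochondrial arginase, rose from 7.42, 7.13 and 7.17 to 9.31, 9.48 and 9.45 (change 2.18, SE 0.10, adjusted p = 2.7e-11), and SAT1, the acetyltransferase, from 10.78, 10.94 and 10.75 to 12.10, 11.94 and 11.98 (change 1.18, SE 0.07, adjusted p = 1.5e-09). OAT, which uses ornithine for other ends, rose by 0.72 (SE 0.12), and SRM, which makes spermidine, fell by 0.55 (SE 0.09). Of 22 tested genes 7 were higher and 4 lower (31.8% and 18.2%, against 12.7% and 11.5% of all genes). Without siGATA2 replicate 1 the number higher was 4. Outside the naming rule and chosen after their values were seen, AMD1 (-0.99) and SMS (-0.40), further steps of polyamine synthesis, were called lower, whereas ODC1, the entry step, was not called (-0.16).

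Cell division genes were lower as a group, by modest amounts. Of 81 tested G2/M and mitosis genes 43 were lower and 2 higher (53.1% and 2.47%, against 11.5% and 12.7% of all genes), with a median change of -0.38. KIF14, a mitotic kinesin, fell from 7.73, 7.78 and 7.52 to 6.09, 6.56 and 6.27 (change -1.37, SE 0.18, adjusted p = 1.7e-05). AURKB, the kinase of the chromosomal passenger complex, fell from 8.04, 8.37 and 8.04 to 7.13, 6.50 and 6.96 (change -1.29, SE 0.16, adjusted p = 7.7e-06). FOXM1, which activates transcription for mitosis, fell from 7.65, 8.04 and 7.77 to 7.28, 6.98 and 6.93 (change -0.76, SE 0.14, adjusted p = 0.00072). These 3 stand below the typical member. HJURP, a loader of centromeric histone, fell by 1.06 (SE 0.14), PRC1, a spindle midzone protein, by 0.70 (SE 0.09) and AURKA by 0.44 (SE 0.10). BIRC5 (-0.27, adjusted p = 0.14) and NUF2 (-0.26, adjusted p = 0.17) are among the 36 members not called. In bulk RNA, fewer dividing cells and less RNA per cell cannot be told apart.

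DNA replication genes were lower in 26 of 59 cases and higher in none (44.1% lower, median -0.29). CDC45, of the replicative helicase, fell from 8.71, 8.83 and 9.00 to 7.92, 7.81 and 7.87 (change -0.98, SE 0.12, adjusted p = 1e-05). RFC1, the large subunit of the clamp loader, fell from 9.68 on each siNT array to 8.87, 8.98 and 8.73 (change -0.82, SE 0.09, adjusted p = 1.1e-06). POLE3, a polymerase epsilon subunit, fell by 0.68 (SE 0.08), and FEN1, the flap endonuclease, by 0.65 (SE 0.08). Upstream of replication, CDC25A, a phosphatase that activates cyclin-dependent kinases, fell from 7.54, 7.78 and 7.79 to 6.50, 6.52 and 6.50 (change -1.19, SE 0.13, adjusted p = 1.6e-06). CDK2 fell by 0.70 (SE 0.10), SKP2, which targets CDK inhibitors for degradation, by 0.66 (SE 0.09) and CCND1, or cyclin D1, by 0.52 (SE 0.08). No gene of the 16 G1 regulators was called higher. The CDK inhibitor CDKN1A read 12.65, 12.61 and 12.69 against 12.47, 12.53 and 12.36 (change -0.20, adjusted p = 0.093) and did not pass.

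Of 18 E2F factors and pocket proteins 3 fell, namely E2F2 by 0.77 (SE 0.13), E2F7 by 0.90 (SE 0.20) and the pocket protein RBL2 by 0.41 (SE 0.08), and E2F5 was called higher (0.29, SE 0.10). The E2F5 call was lost without siNT replicate 3 or 4 or siGATA2 replicate 1 or 2 (adjusted p = 0.092 to 0.16), without the trend in the spread, with the MDVR arrays alone and with a replicate block. UHRF1, which keeps DNA methylation through replication, fell from 9.22, 9.25 and 9.34 to 7.79, 7.54 and 7.26 (change -1.74, SE 0.12, adjusted p = 6.2e-09). It had the largest fall of the 24 DNA methylation and Polycomb genes, of which 6 were lower and 1 higher; CBX2 fell by 0.41 (SE 0.10) and SUZ12 by 0.62 (SE 0.16), both Polycomb proteins. The UHRF1 promoter (chr19:4909251-4909500, plus strand, RefSeq GRCh38.p14) is shown because it holds a match to an E2F motif (TTTCCCGC or TTTGGCGC, either strand), in capitals.
UHRF1: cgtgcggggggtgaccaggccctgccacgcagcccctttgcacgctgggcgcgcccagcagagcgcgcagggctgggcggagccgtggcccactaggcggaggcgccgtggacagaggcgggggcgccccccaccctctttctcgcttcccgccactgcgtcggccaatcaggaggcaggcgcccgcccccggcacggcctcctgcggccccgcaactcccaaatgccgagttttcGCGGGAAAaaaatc
The match lies at bases -14 to -7 and reads on the other strand. E2F motifs were found in 1.96% of all 27305 promoters and 3.12% of those matched to tested genes, in 4.4% of those of genes called lower and in 2.1% of those of genes called higher. The E box CACGTG, which MYC binds, was found in 6.49%, 9.24%, 10.2% and 8.23% of the same sets.

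DNA repair genes had 14 of 50 lower and 2 higher (28.0% and 4.00%). RMI2, which acts with the BLM helicase and was among the 15 largest falls, went from 8.59, 8.80 and 8.67 to 7.25, 7.22 and 6.78 (change -1.61, SE 0.13, adjusted p = 5e-08), and EXO1, an exonuclease, fell by 1.19 (SE 0.17). NBN, of the break-sensing MRN complex, went the other way, from 7.72, 7.62 and 7.76 to 8.90, 9.04 and 9.15 (change 1.33, SE 0.10, adjusted p = 3.5e-08). LIG3 (-0.99) and DDB1 (-0.68) were called lower on their brightest probes and not on their other probes, which gave -0.31 (SE 0.21) and 0.29 (SE 0.25). The other probe of DDB1 was detected on 2 of 3 siNT arrays.

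The machinery that makes ribosomes was lower. Of 64 ribosome biogenesis genes 33 were lower and none higher (51.6%, median -0.28). LYAR, a nucleolar protein, fell from 9.75, 9.61 and 9.73 to 8.75, 8.72 and 8.69 (change -0.98, SE 0.09, adjusted p = 3.9e-07). POLR1E, a subunit of RNA polymerase I, fell from 9.95, 10.06 and 9.94 to 9.30, 9.28 and 9.24 (change -0.71, SE 0.09, adjusted p = 1.2e-05). In both genes the groups are well apart. RRS1 fell by 0.64 (SE 0.09) and FBL, the methyltransferase fibrillarin, by 0.55 (SE 0.07).

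The ribosome's own proteins changed less. Of 68 cytoplasmic ribosomal protein genes 11 were lower and none higher (16.2%), and their median change was -0.02; RPS7 (-0.66, SE 0.09) and RPL36A (-0.65, SE 0.08) fell most clearly, and pseudogene copies of such genes may share probes. Mitochondrial ribosomal proteins had 20 of 76 lower and 3 higher (26.3% and 3.95%). MRPL24 fell from 12.53, 12.54 and 12.53 to 11.63, 11.61 and 11.66 (change -0.91, SE 0.07, adjusted p = 8.7e-09), and MRPL51 by 0.70 (SE 0.07). Subunits of oxidative phosphorylation, the other large set of mitochondrial genes, were called near or under the background rate, 7 of 73 higher and 3 lower. The number higher was 4 without siNT replicate 3, siGATA2 replicate 2 or siGATA2 replicate 3, and the number lower was 1 without siNT replicate 4 and 6 without Abl siGATA2 replicate 3. COX6C rose by 0.39 (SE 0.06).

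MYC, which drives ribosome production and cell growth, read 11.47, 11.30 and 11.59 on the siNT arrays and 11.09, 11.00 and 11.19 on the siGATA2 arrays (change -0.36, SE 0.08, adjusted p = 0.0026). Its other probe was not called (-0.22). In its network of 9 tested genes 1 was higher and 1, MYC itself, lower.

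RNA processing and nuclear transport genes were also called lower more often than higher. In the list of 52 nucleoporins and transport receptors 16 were lower and 2 higher (30.8% and 3.85%); TNPO2, a transportin, fell by 0.76 (SE 0.10), NUP210 by 0.72 (SE 0.12) and RANGAP1, the activator of the Ran GTPase, by 0.55 (SE 0.08). Of 41 spliceosomal snRNP and LSM genes 6 were lower (14.6%, near the background of 11.5%) and none higher, and the number was 2 without siNT replicate 3 and 3 without siGATA2 replicate 2. SF3B3 fell from 9.57, 9.59 and 9.75 to 8.63, 8.44 and 8.10 (change -1.25, SE 0.14, adjusted p = 2.3e-06), and LSM4 by 1.06 (SE 0.09). Proteasome subunits split evenly, 3 higher and 3 lower of 32.

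Targets of p53 were lower more often than higher, 13 against 2 of 30 (43.3% and 6.67%, median -0.29). PLK2, a polo-like kinase, fell from 6.70, 6.37 and 6.86 to 5.34, 5.44 and 5.31 (change -1.28, SE 0.19, adjusted p = 6.8e-05), and AEN, a nuclease of apoptosis, by 0.82 (SE 0.10) on its brighter probe (-0.35 and not called on the other). PMAIP1, or NOXA, which promotes apoptosis, was 1 of the 2 that rose, from 7.77, 7.73 and 7.82 to 8.78, 8.83 and 9.12 (change 1.14, SE 0.13, adjusted p = 4e-06). CDKN1A, a classical target, is among those that did not pass (-0.20). Apoptosis regulators at large were 6 higher and 6 lower of 34, with BNIP2 falling by 1.02 (SE 0.10) and CYCS, or cytochrome c, rising by 0.67 (SE 0.10).

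**Figure D3:**
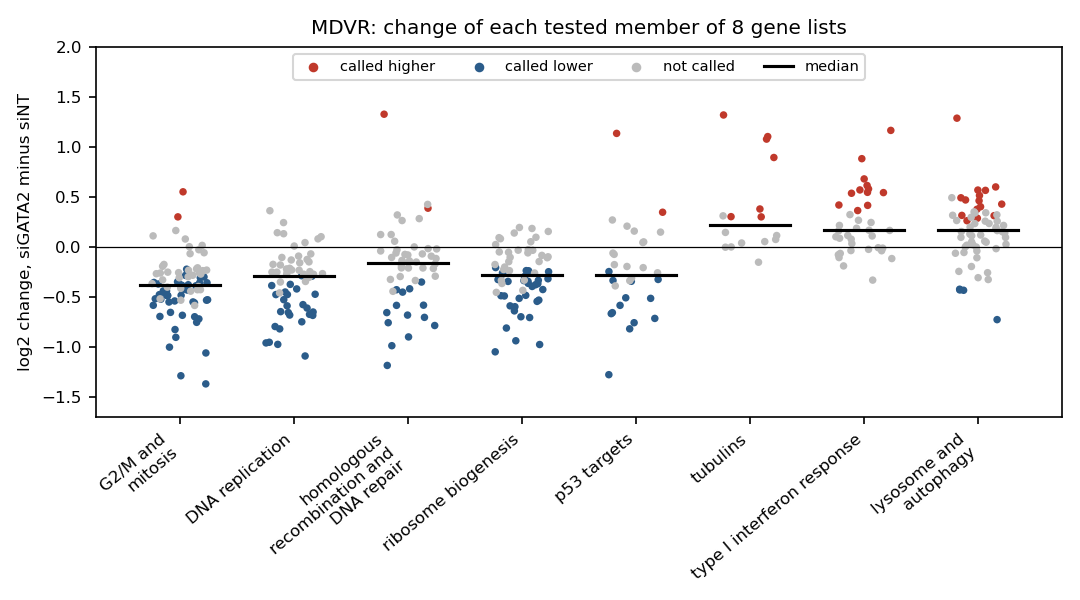
Log2 change, siGATA2 minus siNT, of every tested member of 8 gene lists, 1 point a gene (called higher, called lower or not called) with the list's median as a bar. Medians lie at -0.38 for G2/M and mitosis, -0.29 for DNA replication, -0.28 for ribosome biogenesis and -0.29 for p53 targets, and at 0.22 for tubulins, 0.16 for the interferon response and 0.17 for lysosome and autophagy.

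Tubulin genes were higher in 7 of 16 cases and lower in none (43.8%, median 0.22). TUBB2A, a beta-tubulin, rose from 7.79, 8.03 and 7.96 to 9.36, 9.24 and 9.14 (change 1.32, SE 0.11, adjusted p = 3.5e-08), TUBB3, a neuronal beta-tubulin, by 1.10 (SE 0.15) and TUBB4A by 0.89 (SE 0.20). TUBB6 rose by 1.08 (SE 0.19) on its brighter probe and was not called on the other (0.24). The number called was 4 without siNT replicate 2, and these genes are near copies whose probes may share signal.

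Lysosome and autophagy genes were higher in 15 of 62 cases and lower in 4 (24.2% and 6.45%, median 0.17). CTSO, a cathepsin, rose from 6.34, 6.78 and 6.46 to 7.67, 7.95 and 7.83 (change 1.29, SE 0.15, adjusted p = 3.6e-06). LAMP2, a protein of the lysosomal membrane, rose by 0.60 (SE 0.07), with 3 of its 5 other probes also called higher. ATG3, which lipidates autophagy proteins, fell by 0.73 (SE 0.09) and SCARB2, a lysosomal receptor, by 0.43 (SE 0.07). Genes of the secretory pathway stood near the background, 9 of 54 higher and 3 lower (16.7% and 5.56%), with KDELR3, a retrieval receptor, at 1.20 (SE 0.20) and SEC24D, of the COPII coat, at 0.76 (SE 0.13). RAB18, a small GTPase of lipid droplets, rose from 7.41, 7.23 and 7.43 to 8.74, 8.66 and 8.77 (change 1.37, SE 0.11, adjusted p = 5.1e-08), but the 44 RAB genes as a list stood near the background, 6 higher and 2 lower.

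Lipid genes leaned upward. Of 37 genes of fatty acid synthesis and oxidation 12 were higher and 1, AMACR, lower (32.4% and 2.70%). ACSL5, which activates fatty acids, rose from 5.57, 5.81 and 5.98 to 7.13, 7.24 and 6.91 (change 1.31, SE 0.17, adjusted p = 1.5e-05), and ACSL1, another such enzyme, by 0.54 (SE 0.09). Cholesterol synthesis and uptake genes were higher in 9 of 29 cases and lower in 1 (31.0% and 3.45%); HMGCS1 rose from 9.85, 10.00 and 10.00 to 10.45, 10.43 and 10.39 (change 0.47, SE 0.07, adjusted p = 5.7e-05), and CYP51A1, a demethylase of sterol synthesis, by 0.64 (SE 0.11). Both are enzymes of the mevalonate and sterol route. Of 21 peroxisome genes 6 were higher and 2 lower, among them ABCD3, a fatty acid importer (0.55, SE 0.10), and EHHADH, a beta-oxidation enzyme (-0.74, SE 0.17).

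Genes of the unfolded protein response were higher in 10 of 35 cases and lower in 3 (28.6% and 8.57%), and 6 were higher without siNT replicate 3. The chaperone CALR rose by 0.57 (SE 0.08) and CRELD2 by 0.49 (SE 0.08), while the protein disulfide isomerases PDIA4 and P4HB fell by 0.81 (SE 0.12) and 0.46 (SE 0.08). Cytosolic heat shock chaperones split, 5 higher and 4 lower of 34, and the number lower was 1 without siNT replicate 4 and 2 without siGATA2 replicate 2 or 3. CRYAB, or alpha B-crystallin, rose from 7.23, 7.46 and 7.07 to 8.82, 8.77 and 8.73 (change 1.52, SE 0.12, adjusted p = 4.5e-08), HSPB8 by 1.20 (SE 0.15) and HSPB1 by 0.38 (SE 0.06). HSPH1, a co-chaperone of the larger machines, fell by 0.31 (SE 0.07).

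Genes that type I interferon induces were higher in 12 of 37 cases and lower in none (32.4%, median 0.16). A further 11 listed genes with probes did not pass the detection filter, among them IFIT3, IFI44, RSAD2, OAS3 and OASL, and were not tested. ISG15, a ubiquitin-like modifier, rose from 9.50, 9.44 and 9.49 to 9.84, 10.06 and 10.17 (change 0.55, SE 0.09, adjusted p = 0.00019), and HERC5, its ligase, from 6.66, 6.76 and 6.50 to 7.28, 7.12 and 7.56 (change 0.68, SE 0.12, adjusted p = 0.00029). ISG20 and IFITM2 rose by 0.54 (SE 0.08) and 0.61 (SE 0.10). The groups separate for each of these 4, by less than 2-fold. Antigen presentation by HLA class I was called in 3 of 16 genes, all higher (18.8%, against 24.2% of all genes called); its peptide transporter TAP1 did not pass (0.24, adjusted p = 0.067). Among metallothioneins, which bind zinc and copper, 4 of 7 were higher, MT1G rising from 12.66, 12.60 and 12.67 to 13.06, 13.10 and 13.04 (change 0.42, SE 0.07, adjusted p = 0.00024), though their probes may read one another.

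Signalling genes showed single large changes more than shared direction. In the ID, BMP and TGF-beta list 7 of 24 were higher and 2 lower, with 4 higher without siGATA2 replicate 2 and none lower without siGATA2 replicate 3. ID2, an inhibitor of basic helix-loop-helix factors, rose from 6.85, 6.98 and 7.29 to 8.23, 8.74 and 8.68 (change 1.51, SE 0.15, adjusted p = 4.2e-07), and BAMBI, a decoy receptor of the TGF-beta family, from 11.06, 11.33 and 10.97 to 12.07, 12.02 and 12.05 (change 0.92, SE 0.08, adjusted p = 1.1e-07). HES6, a Notch-related repressor, rose from 12.19, 12.26 and 12.51 to 13.65, 13.71 and 13.66 (change 1.36, SE 0.08, adjusted p = 1.2e-09). Each of these 3 separated the groups by more than the spread within either. DLL1, a Notch ligand, rose by 1.09 (SE 0.15) and LRP5, a WNT co-receptor, fell by 0.90 (SE 0.13), in a WNT and Notch list of 34 with 4 higher and 6 lower.

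Growth factor receptors and their feedback genes had 5 higher and 3 lower of 26. IGFBP3 fell from 8.27, 8.32 and 8.24 to 6.97, 6.79 and 6.77 (change -1.43, SE 0.16, adjusted p = 3.6e-06), whereas IGFBP5 rose from 6.15, 5.53 and 5.54 to 6.69, 6.73 and 6.92 (change 1.04, SE 0.17, adjusted p = 0.00022); both bind insulin-like growth factors. Cytokine and NF-kappaB genes were called often but without a direction, 7 higher and 6 lower of 24, with 4 higher without siNT replicate 2. IL6ST, the shared receptor chain gp130, rose by 0.90 (SE 0.11), IL32 by 0.89 (SE 0.15), and the death receptor TNFRSF21 fell by 0.78 (SE 0.10). Immediate early genes were 4 higher and 4 lower of 25; KLF4 rose by 1.15 (SE 0.16), DUSP1, a MAP kinase phosphatase, by 0.54 (SE 0.09), and the orphan receptor NR4A2 fell by 1.12 (SE 0.20). Hypoxia and glycolysis genes split as well, 5 higher and 6 lower of 35. Without siNT replicate 4 or siGATA2 replicate 1 the number higher was 3, and without siNT replicate 3 or siGATA2 replicate 3 the number lower was 3. P4HA2, a collagen prolyl hydroxylase, rose by 0.92 (SE 0.12), and CA12, a carbonic anhydrase, and HK2, a hexokinase, fell by 0.82 (SE 0.09) and 0.87 (SE 0.14).

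Epithelial junction genes were 7 higher and 7 lower of 42 (16.7% each, against 12.7% and 11.5% of all genes). CDH1, or E-cadherin, rose from 11.62, 11.66 and 11.60 to 12.39, 12.34 and 12.31 (change 0.72, SE 0.06, adjusted p = 1.3e-07), and the claudins CLDN12, CLDN7 and CLDN23 by 1.19 (SE 0.08), 0.57 (SE 0.08) and 0.66 (SE 0.11). The called members of the mesenchymal list went down, 3 of 9 with none higher (2 higher without siNT replicate 3). ACTA2, smooth muscle actin, fell from 6.67, 7.02 and 6.98 to 6.10, 6.23 and 6.16 (change -0.73, SE 0.13, adjusted p = 0.00039), TNC, or tenascin C, by 0.44 (SE 0.12), and CALD1, an actin-binding protein, by 1.11 (SE 0.08). CALD1 has a probe that fell further (-2.06) and one that was not called (-0.08), which may read different transcripts. Matrix genes other than MATN2 included LAMC1 (0.46, SE 0.08) and COL16A1 (0.51, SE 0.10), in a list of 21 with 5 higher and 1 lower. In the actin list RDX, or radixin, fell by 0.64 (SE 0.11) and MYL12B, a myosin light chain, rose by 0.51 (SE 0.06), with 6 of 40 higher and 5 lower.

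Transporters for amino acids were higher in 7 of 23 cases and lower in 2 (30.4% and 8.7%, against 12.7% and 11.5% of all genes). SLC7A5, the large neutral amino acid carrier, rose from 8.10, 7.90 and 7.85 to 8.40, 8.60 and 8.42 (change 0.52, SE 0.08, adjusted p = 9.9e-05), and SLC38A9, a lysosomal arginine sensor, by 0.72 (SE 0.11). SLC7A2, a carrier of arginine and other cationic amino acids, fell from 6.88, 6.90 and 7.13 to 5.78, 5.81 and 6.00 (change -1.11, SE 0.12, adjusted p = 2e-06), and SLC16A10, of aromatic amino acids, by 1.03 (SE 0.09). Among ion channels the calcium-activated potassium channel KCNMA1 was at least 1.77-fold lower and detected on no siGATA2 array, while its relative KCNU1 rose. The log2 change of KCNMA1 ran from -1.05 to -0.20 across the alternatives. LCN2, an iron-binding lipocalin, rose from 5.69, 5.92 and 5.67 to 6.87, 6.86 and 7.27 (change 1.24, SE 0.18, adjusted p = 4.5e-05). The lists of 31 ion and 24 zinc and iron transporters stood near the background, with 4 higher in each and 3 and 1 lower. Of 8 tested HOX genes the 3 called are all of the HOXC cluster and higher. HOXC13 rose by 0.59 (SE 0.12), HOXC6 by 0.54 (SE 0.08) on 1 of 2 probes, and HOXC4 by 0.67 (SE 0.20), a call lost without siNT replicate 4 (adjusted p = 0.10) or siGATA2 replicate 3 (0.092).

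**Figure D4:**
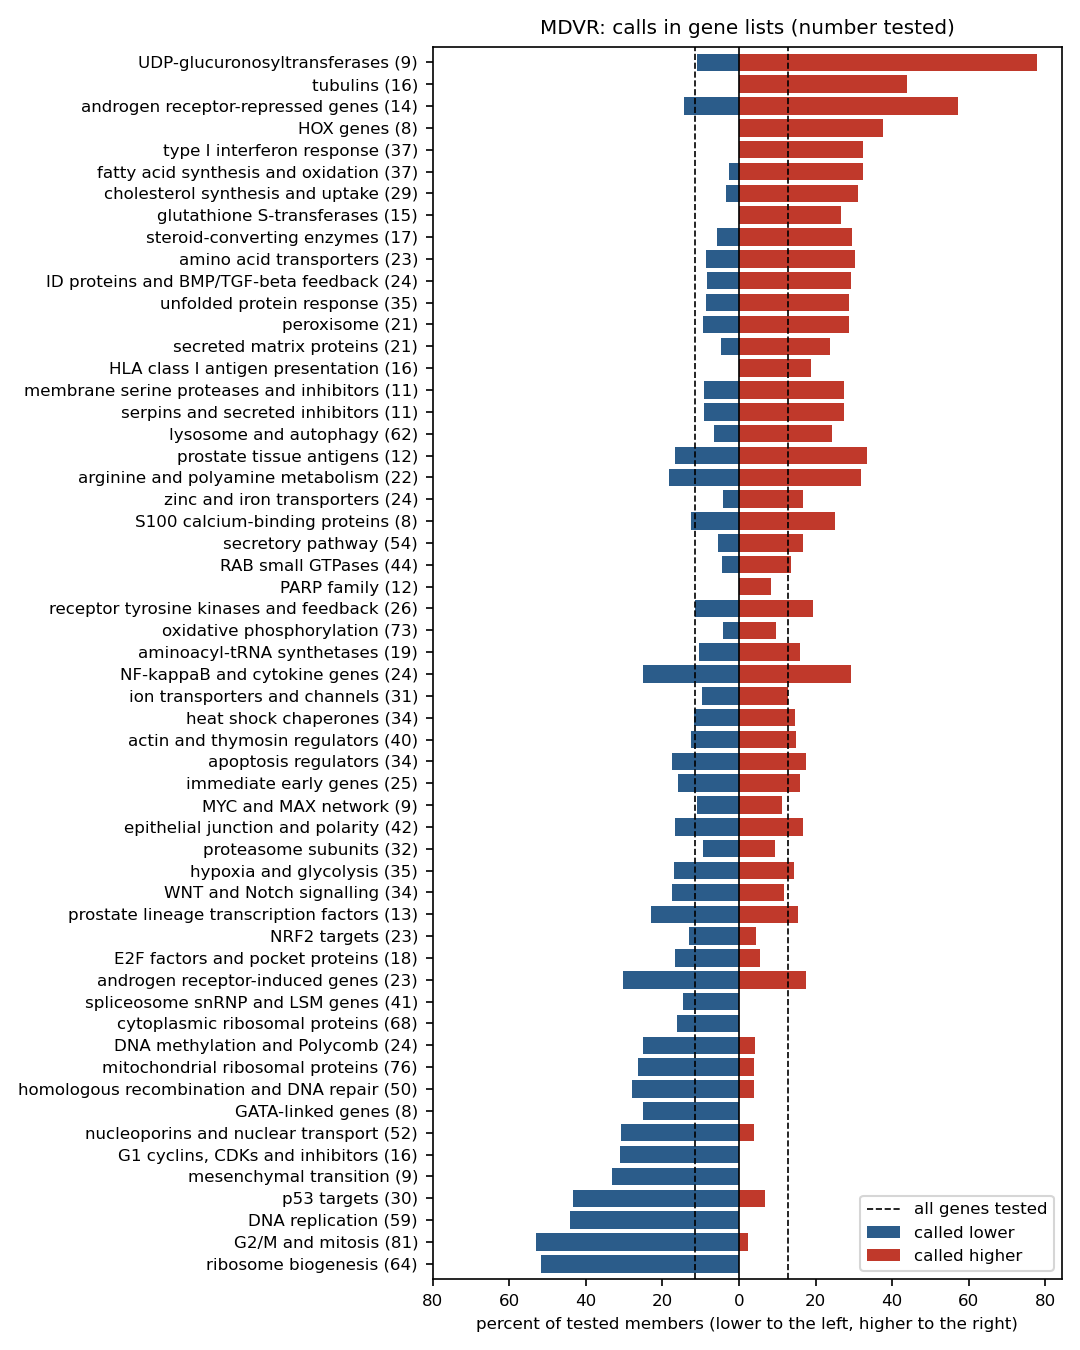
Share of tested members called lower (left) and higher (right) in siGATA2 against siNT cells for each gene list with at least 8 tested members, the number tested in parentheses; dashed lines mark the shares over all genes, 11.5% and 12.7%. Ribosome biogenesis (51.6% lower) and G2/M (53.1% lower) stand at the lower end, and the UDP-glucuronosyltransferases (77.8% higher), androgen-repressed genes (57.1%) and tubulins (43.8%) at the upper end.

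Markers of luminal prostate epithelium were present in both groups. Of 14 named on the arrays 13 were detected on at least 3 arrays, and their summed linear signal was 23273 to 25039 in siNT and 27707 to 28450 in siGATA2 cells. Of the 13, 3 were called higher and 4 lower (23.1% and 30.8%): CDH1, FOLH1 and STEAP2 were higher and AMACR, KLK2, KLK3 and ACP3, or prostatic acid phosphatase, lower. KRT8, KRT18 and EPCAM, the defining keratins and adhesion molecule, were not called. Endothelial markers rose through VWF, the von Willebrand factor, which went from 5.25, 4.63 and 4.74 to 6.71, 6.63 and 6.33 (change 1.69, SE 0.18, adjusted p = 1.3e-06); ESAM was detected on no array, EGFL7 was not called (0.35, adjusted p = 0.26), and the summed signal of the 3 markers was 88.0 to 110 in siNT and 160 to 182 in siGATA2 cells. The VWF probe was detected on 1 of 3 siNT arrays, and its change ran from 0.39 to 1.87 across the alternatives. Whether VWF reflects another cell type was not tested. Fibroblast, leukocyte and basal markers gave sums whose ranges overlapped or lay lower, with COL1A2 and CD14 detected on no array. The sums cover only 4 of 14 listed fibroblast and muscle, 5 of 18 leukocyte and 2 of 10 basal markers. Neuroendocrine and neuronal markers were 2 higher and 2 lower of 10, and NTS, SCGN and SYT1 were detected on no array. TUBB3 and DDC, which makes dopamine and serotonin (0.39, SE 0.06), rose, and ENO2, a neuronal enolase, fell by 0.72 (SE 0.13).

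Against Abl the response differed for 729 genes (6.59%), 430 with a more positive and 299 with a more negative change in MDVR; without Abl siGATA2 replicate 4 the count was 476. Probes were chosen by detection in MDVR, and 34 of the 729 were detected on no array of at least 1 of the 4 groups; the sizes of those differences are limited by the background. Of the 10 most positive differences all but that of SERPINA3 were in cell division genes, or a pseudogene of one, with far larger falls in Abl. The pseudogene is PTTG3P, whose probe may read PTTG1. PTTG1, or securin, read 11.69, 11.80 and 11.67 against 11.50, 11.25 and 11.29 in MDVR, a change of -0.37 (SE 0.09), against -2.18 (SE 0.09) in Abl. TOP2A, the topoisomerase of dividing cells, changed by -0.37 (SE 0.11) and -2.28 (SE 0.11), a difference of 1.91 (95% interval 1.60 to 2.23, adjusted p = 3.2e-07). Over the 81 G2/M genes the median change was -0.38 in MDVR and -1.60 in Abl, and 68 members differed by the test of the difference, against 6.59% of all genes. For DNA replication the medians were -0.29 and -0.84, and 25 of 59 differed. Ribosome biogenesis went down in both lines (medians -0.28 and -0.38), with 1 of 64 genes differing, and FOXM1 changed by -0.76 in MDVR and -2.04 in Abl.

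On the other side stood genes with a more negative change in MDVR. KLK2, at least 2.45-fold lower in MDVR, was detected on no Abl array, so its change there is unmeasured. KLK4 changed by -1.92 in MDVR and -1.23 in Abl (difference -0.69, 95% interval -1.01 to -0.36, adjusted p = 0.01). SDCBP2 moved in opposite directions, by -2.26 and 0.78 (difference -3.04, SE 0.28), as did MMP10, a matrix protease, by -1.01 and 1.499 (difference -2.51, SE 0.28), though its own change in MDVR was not called on the authors' values. HEPACAM, at least 3.72-fold lower in MDVR, changed by 0.19 in Abl. TM4SF1 fell in MDVR, with a change of -0.02 in Abl, where every array detected it. COLCA1 fell in MDVR and gave -0.07 in Abl. Its probe was detected on 2 of 3 Abl siNT and 1 of 3 Abl siGATA2 arrays, so a fall there could hardly be measured. SEMA3C was detected on no Abl array. VWF rose by 1.69 in MDVR and by 3.83 in Abl. Its probe was detected on 1 of 3 siNT arrays in each line, so both sizes are limited by the background. ID3 changed by 0.49 in MDVR, against 3.19 in Abl; the MDVR call was lost without siNT replicate 4 (adjusted p = 0.067) or siGATA2 replicate 2 (0.071), without background correction, on the authors' values, with the MDVR arrays alone and with a replicate block. RANBP10 and KLB, a co-receptor of fibroblast growth factors, which rose by 1.88 and 1.91 in Abl, gave 0.09 and -0.05 in MDVR.

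SERPINA3 rose by 2.28 in MDVR, while in Abl its probe was detected on no siNT array and on 1 siGATA2 array. The difference was called (adjusted p = 4.3e-06), but its size is limited by the background in Abl. ADGRV1 also differed, with a change of 0.40 in Abl, and TRIM2, at least 3.12-fold higher in MDVR, changed by 0.49 in Abl. TARP and LCN2, which rose in MDVR, were detected on no Abl array. By contrast the rises of ENPP5, GSTA2 and ZBTB34 and the falls of UHRF1 and RMI2 gave differences between -0.21 and 0.14, none of them called. ODAM was at least 3.09-fold lower in MDVR and at least 3.31-fold lower in Abl. That these missed the threshold does not show equal change in both lines.

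**Figure D5:**
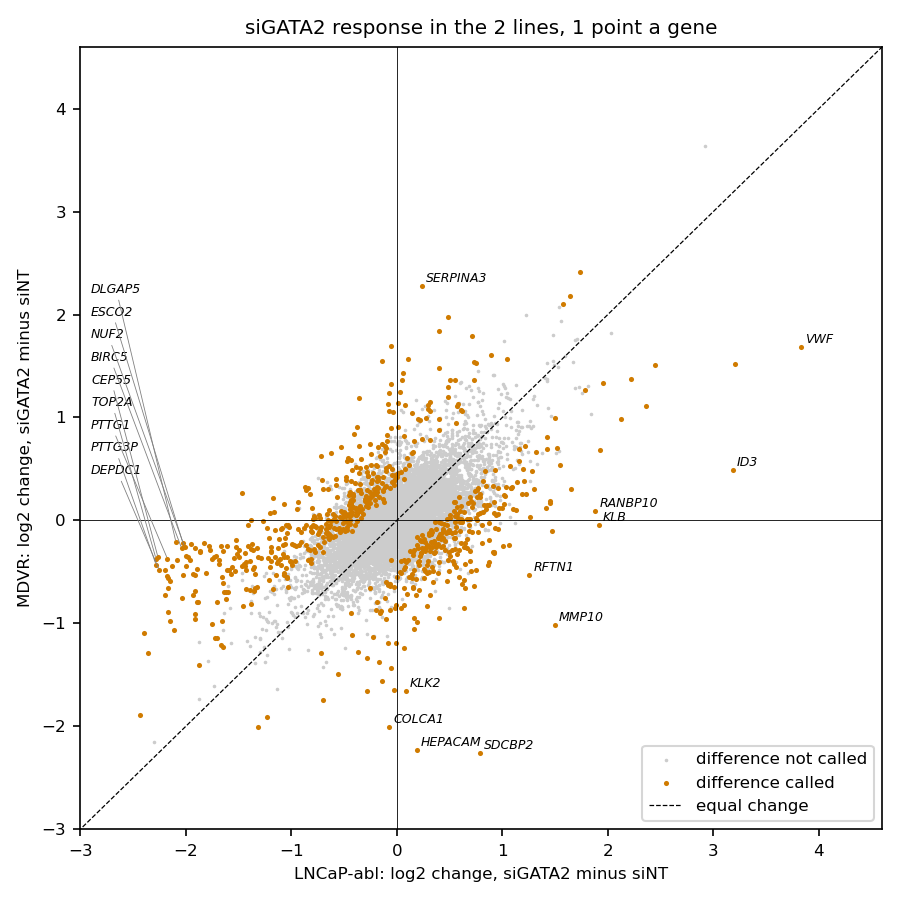
Log2 change, siGATA2 minus siNT, of each tested gene in LNCaP-abl (horizontal) and MDVR (vertical); coloured points are the 729 genes whose change differs between the lines, labels mark the 10 largest differences in each direction, and the dashed line marks equal change. The labelled cell division genes, picked for their difference, lie far to the left in LNCaP-abl and closer to 0 in MDVR. SERPINA3 lies high in MDVR and near 0 in LNCaP-abl. SDCBP2, HEPACAM, COLCA1 and KLK2 lie low in MDVR and near or above 0 in LNCaP-abl. Plotted changes are fitted values, also where a probe was not detected, as for SERPINA3 in LNCaP-abl siNT cells and KLK2 in both LNCaP-abl groups. COLCA1 was detected on only some LNCaP-abl arrays.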

How the data were processed

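RNA of the 12 samples was measured on Illumina BeadChip expression arrays, 1 array a sample, 3 in each group. The average RNA integrity score was 9.9, per the labels. The deposited table gives probe intensity on a linear scale, not normalized, with a detection p-value for each probe and array, whose steps are 1 in 770 negative controls. Processed log2 values of 23043 probes, also deposited by the authors, served as an alternative. For these the submitters' processing notes name lumi. Its version is not given in the sources used here, nor are its settings.

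Intensities were background corrected and quantile normalized with neqc (limma 3.58.1, R 4.3.3, offset 16) over the 12 arrays, with the negative controls inferred from the detection p-values. Probes with detection p under 0.05 on at least 3 of the 6 MDVR arrays were kept. A probe table names 16978 probes, 16973 with 1 symbol and 5 with several; the kept probe with the highest mean per symbol was used, and 2876 genes had more than 1. Probes of ACOT2, BRI3BP, DCUN1D4, PGAM4 and WTAP were called in both directions. A model of the 4 group means (8 residual and 10.6 prior degrees of freedom) was fitted with eBayes and a trend, and p-values were adjusted by Benjamini-Hochberg over all genes. A call is an adjusted p under 0.05, and every adjusted p in the text comes from limma. The median SE was 0.13 for the MDVR change and 0.18 for the difference between lines; the number of arrays limits the precision. No replicate block was used.

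For a probe that no array of a group detected, the fold is a lower bound against the higher of the array's lowest detected signal and the probe's own value. The bound is computed on the neqc values and includes no sampling error, so other processing can give smaller changes. In simulated data with 200 of 11066 genes changed, the MDVR comparison recovered 43.3%, 88.1% and 98.5% of changes of 0.5, 1 and 2 log2 units, with 10 false calls. The simulated arrays had independent normal noise around the MDVR siNT means. In the measured data 24.2% of genes were called, a far larger share, so these rates need not hold there.

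Gene lists, members and tests were chosen with earlier results of these data known. Lists are described by counts and medians, without a test. Every list count is to be read beside the shares over all genes, 12.7% higher and 11.5% lower. A naming rule picked 270 genes to follow. They were fixed genes, the 15 largest rises and falls, and the 10 largest differences each way. Up to 4 members of each list with the smallest adjusted p (all called members where 5 or fewer) were added. The text does not name all of these genes. Genes the probe table does not name are not analysed here. Promoters come from RefSeq and were aligned with Biopython 1.88. Alternatives covered background correction, normalization, the authors' values, detection filters, averaging of probes, the estimate of the spread, MDVR arrays alone, a replicate block, a 1.5-fold minimum and leaving out each array.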

Additional observations from a re-analysis of the deposited data

Results flagged for a closer look

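The change after siGATA2 differed between MDVR and LNCaP-abl, by limma's test of the difference itself (adjusted p under 0.05), for 76 of the genes named in the text. Values are the MDVR change minus the LNCaP-abl change in log2 units. The lines also differ in serum and enzalutamide, and these cannot be told apart from the line. Groups held 3 arrays, so single arrays were not tested as outliers. Some probes were detected on no array of a group, namely KLK2, KLKP1, HEPACAM and RFTN1 in MDVR siGATA2, TRIM2 in MDVR siNT, SERPINA3 in LNCaP-abl siNT, ESCO2 in LNCaP-abl siGATA2, and KLK2, KLKP1, SEMA3C, TARP and LCN2 in both LNCaP-abl groups. Their differences are fitted values limited by the background, with no measured size or order. COLCA1 was detected on 2 LNCaP-abl siNT arrays and 1 siGATA2 array, and UGT1A6 on 1 of each, so their differences are limited by the background too.

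Among genes of cell division and DNA replication, RFC1 had a more negative change in MDVR, and the other 17 listed had a more positive one, with differences of 1.91 for TOP2A, 1.90 for CEP55, 1.89 for DLGAP5, 1.85 for PTTG3P, 1.81 for ESCO2, 1.80 for PTTG1, 1.77 for DEPDC1, 1.77 for BIRC5, 1.75 for NUF2, 1.56 for AURKA, 1.28 for FOXM1, 1.17 for CDC45, 1.07 for AURKB, 1.05 for HJURP, 0.91 for PRC1, 0.85 for E2F2 and 0.67 for FEN1. Among genes with a positive MDVR estimate and no negative estimate in LNCaP-abl, the difference was 2.04 for SERPINA3, 1.49 for TRIM2, 1.45 for ADGRV1, 1.38 for TARP, 1.08 for RLN1, 0.85 for HES6, 0.80 for RLN2, 0.71 for HSPB8, 0.68 for KCNU1, 0.53 for GSTA1, 0.53 for ARG2, 0.52 for MATN2, 0.42 for ACSL1 and 0.42 for MT1G. On the authors' values the differences of RLN2, HSPB8 and KCNU1 turned negative. The estimate was positive in MDVR and negative in LNCaP-abl with differences of 1.32 for LCN2, 1.24 for CASP6, 1.08 for AIMP1, 0.95 for IL32, 0.71 for SLC7A5, 0.60 for PARP2, 0.57 for DDC and 0.42 for RAB17. It was negative in MDVR and more negative in LNCaP-abl with differences of 0.68 for LYAR, 0.68 for MYC, 0.57 for PDIA4, 0.55 for SPINT2, 0.49 for RANGAP1 and 0.39 for YARS1.

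Negative differences were of 3 kinds. Both estimates were negative, with the MDVR one further from 0, for COLCA1 at -1.94, TM4SF1 at -1.62, SEMA3C at -1.42, KLKP1 at -1.37, UGT1A6 at -1.21, MIA3 at -1.04, PLK2 at -0.91, EHF at -0.85, AMACR at -0.70, CALD1 at -0.69 and KLK4 at -0.69. The MDVR estimate was negative and the LNCaP-abl one positive for SDCBP2 at -3.04, MMP10 at -2.51, HEPACAM at -2.42, KLB at -1.96, RFTN1 at -1.79, KLK2 at -1.74, RDX at -1.37, ACTA2 at -0.91, RFC1 at -0.89, SRM at -0.55, ST7 at -0.54 and CDKN1A at -0.42. Both were positive, with the MDVR one nearer 0, for ID3 at -2.70, VWF at -2.15, RANBP10 at -1.79, CRYAB at -1.68, AKR1C3 at -1.25, ID2 at -0.94, RAB18 at -0.85 and CDH1 at -0.49.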

How the results depend on the processing

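The number of genes called in MDVR, 2675 as reported, was 2738 without background correction, 2718 with normexp and an offset of 50, 2537 with median scaling, 2735 with cyclic loess, 2772 on the authors' values, 2721 when probes had to be detected on 3 of 3 arrays in siNT or siGATA2, 2602 with no detection filter, 2672 with probes averaged, 2412 without the trend and 2576 from the MDVR arrays alone. With 1 array left out it was 2138 to 2796, with 1104 to 1449 higher and 1001 to 1347 lower, and the number of differences was 476 to 704. Requiring a change beyond 1.5-fold left 162 genes (102 higher and 60 lower) and 63 differences, by construction of that test. GATA2 itself lay between -0.29 and -0.10 with 1 array left out and was called under none of the alternatives. The differences of KCNU1 (-0.12), RLN2 (-0.10) and HSPB8 (-0.071) turned sign on the authors' values; the cause was not tested. Of 242 called genes picked by the naming rule, not all of them named in the text, 194 kept their call under every alternative but the 1.5-fold minimum. siNT and siGATA2 shared replicate numbers 2 and 3, but the deviations of same-numbered arrays correlated at 0.0098 and 0.094, which does not show a pairing and does not exclude one. With the replicate block 1880 genes and 385 differences were called, with 9 nucleoporin and transport, 23 ribosome biogenesis and 32 G2/M genes lower and 4 tubulin, 5 cholesterol and 6 unfolded protein response genes higher. List counts of 4 or fewer often moved by 1 to 3 with 1 array left out. Signals near background limit folds.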
